A study of Mus musculus with 19 samples.

Results

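Transcripts of 7 genes that handle lipoproteins and cholesterol were followed in mouse bone marrow monocytes: Apoe, Abca1, Abcg1, Lpl, Pltp, Nr1h3 and Lipa. They were chosen by name from the 50854 genes of the count table, and all 7 had a row there and passed the filter on low counts. Bulk RNA-seq was made from sorted cells of female mice aged 8 to 12 weeks. The labels name wild type and REP mice, and REP mice carry fluorescent reporters for chemokine receptors, CCR1 and CCR2 among them. Cells were gated as CD11b+ Ly6C++ Ly6G- inflammatory monocytes and parted by their reporters into cells with CCR2 alone (CCR2+ve) and cells with CCR1 and CCR2 (CCR1/2+ve). Resting mice gave 4 libraries of CCR2+ve and 4 of CCR1/2+ve monocytes, and whether they carried a vehicle pump is not given in the sources used here. Inflamed mice had an osmotic pump under the skin that released IL-3, IL-6, GM-CSF and IFN-α for a week. They gave 4 libraries of CCR2+ve monocytes, 3 of CCR1/2+ve monocytes (replicates 2, 3 and 4) and 4 labelled inflamed CCR1, a population whose gate is not given in the sources used here. The labels do not say which libraries came from the same mouse or from pooled mice, so p-values measure the spread between libraries, which may be technical.

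Apolipoprotein E, the product of Apoe, coats lipoprotein particles and carries cholesterol away from cells, and macrophages are a known source of it. ABCA1 and ABCG1 pump cholesterol out of the cell onto such acceptors, phospholipid transfer protein (Pltp) moves phospholipid between particles, and lipoprotein lipase (Lpl) releases fatty acids from their triglyceride. Lysosomal acid lipase (Lipa) frees cholesterol from the esters that cells take up. The oxysterol-activated nuclear receptor LXRα (Nr1h3), paired with RXR, is a known activator of Apoe, Abca1, Abcg1, Lpl and Pltp in macrophages.

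Of the 7 genes, 5 had an entry among the RefSeq promoters (GRCm38.p6), and Abcg1 and Lpl had none. The 250 bases before the start of Apoe and of Abca1 are shown because both are known LXR targets, of which Apoe fell with inflammation and Abca1 was not called. All windows were searched on both strands for an LXR-type direct repeat (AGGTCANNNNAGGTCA, with up to 3 mismatches in its 12 fixed positions), an interferon-type element (TTTCNNTTTC) and a GC box (GGGCGG), and these motifs may overlap. Capitals mark the match to the direct repeat.
Apoe, minus strand of chr7:19699189-19699438: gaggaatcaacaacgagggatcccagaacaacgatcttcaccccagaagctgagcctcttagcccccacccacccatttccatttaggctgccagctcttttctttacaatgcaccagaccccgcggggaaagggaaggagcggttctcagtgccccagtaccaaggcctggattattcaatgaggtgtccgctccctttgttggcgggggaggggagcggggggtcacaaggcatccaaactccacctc
Abca1, minus strand of chr4:53159896-53160145: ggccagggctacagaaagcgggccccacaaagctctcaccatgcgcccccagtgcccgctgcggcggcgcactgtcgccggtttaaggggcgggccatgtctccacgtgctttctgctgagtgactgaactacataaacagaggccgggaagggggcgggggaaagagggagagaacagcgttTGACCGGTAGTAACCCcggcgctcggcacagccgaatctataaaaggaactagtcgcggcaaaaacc
The direct repeat in the Abca1 window lies on the opposite strand, from 67 to 52 bases before the start, with 3 mismatches, and GC boxes lie from 163 to 158 and from 97 to 92 bases before the start. None of the 3 motifs was found in the windows of Apoe, Nr1h3 or Lipa, and that of Pltp held 1 GC box. Of 32817 promoter windows of the same length, 18.5% held the direct repeat, 2.97% the interferon-type element and 32.7% a GC box. A match describes the letters of a window and does not show a bound site.

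The libraries held 22268658 to 30502009 reads on genes (median 23706580). The 10 monocyte markers summed to 31678 to 61427 CPM (counts scaled to the TMM-normalised reads on all genes of a library) in all libraries but those labelled inflamed CCR1. The libraries labelled inflamed CCR1 went against the label of monocytes. The same markers summed to 7798 to 12444 CPM there, with Ccr2 at 5.81 ± 2.56 and Fn1 at 3.52 ± 2.23 CPM (SD, n = 4), while 12 mature neutrophil markers summed to 104781 to 153446 CPM, against 840.4 to 3738 CPM in the other libraries. Ngp, a neutrophil granule gene named after its values were seen, was at 85941 ± 12739 CPM there (SD, n = 4). Ngp and Camp made up 81.7% of the mean sum. The name of the list, mature neutrophil, thus does not give the stage of these cells, which was not tested. Of the 12 markers 10 were called higher and 1 lower than in inflamed CCR2+ve monocytes (14.4% and 16.8% of all genes). Mmp8 was at 9.09 against 1044 CPM, and Mmp9, Ly6g and Retnlg were at 4.72, 14.4 and 22.8 CPM. Of 15 tissue macrophage markers 2 were called higher and 9 lower, with Vcam1 at 464 and Slc40a1 at 537 CPM. These names were also picked after their values were seen. This population is called by its label, inflamed CCR1, and its comparisons come last. The 12 stromal and adipocyte markers, of cells known to express Lpl, summed to 0.305 to 2.85 CPM. In bulk RNA, fewer cells of a type and less RNA per cell cannot be told apart.

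**Figure D1:**
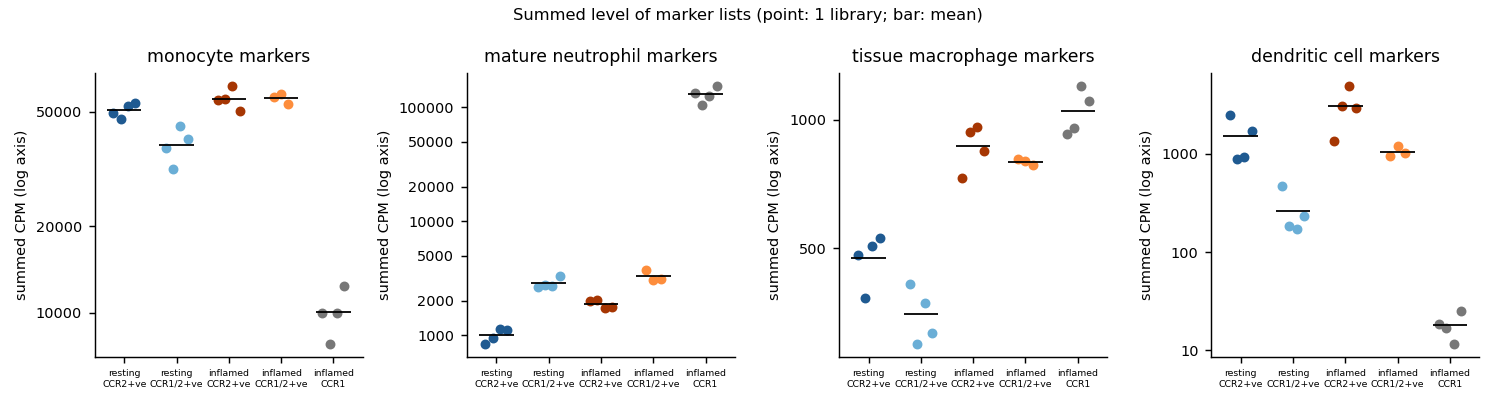
Summed level of marker lists in each of the 19 libraries, in CPM on a log axis, by population. The 4 inflamed CCR1 libraries lie below all others for monocyte markers and above all others for the list named mature neutrophil, there mostly Ngp and Camp.

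Per kilobase of exon, Apoe had the highest level of the 7 genes in resting cells. In resting CCR2+ve monocytes Apoe was at 730.4 ± 219 CPM per kb, Lipa at 70.5 ± 19.2, Abcg1 at 34.0 ± 9.28, Lpl at 21.6 ± 8.03, Pltp at 5.05 ± 2.10, Nr1h3 at 0.875 ± 0.312 and Abca1 at 0.293 ± 0.230 CPM per kb (SD, n = 4). Of the transporters, Abcg1 was abundant and Abca1 scarce. In inflamed CCR2+ve monocytes Apoe was at 4.996 ± 1.49 CPM per kb, below Lipa (68.2 ± 9.82), Abcg1 (33.7 ± 8.37) and Lpl (16.2 ± 4.39) and within the spread of Pltp (4.68 ± 2.63, SD, n = 4). Nr1h3 rested on 31 to 76 reads a library and Abca1 on 1 to 126, which limits their precision. Nr1h2, the other LXR gene, had 60727 reads over all libraries, against 1011 for Nr1h3. Nr1h3 alone thus does not give the LXR level of these cells. Of the exonic bases of Pltp, 19.3% are shared with Ctsa on the other strand, and since the strand setting of the counting is not stated, reads there cannot be told apart from those of Ctsa.

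Apoe (ENSMUSG00000002985, chromosome 7, 19696109 to 19699188, GRCm38) had the widest range of levels of the 7 genes. Its levels in resting CCR2+ve monocytes were 1224, 1094, 1930.2 and 1998 CPM in replicates 1 to 4, and in resting CCR1/2+ve monocytes 471, 402, 757 and 563 CPM. In inflamed CCR2+ve monocytes they were 11.3, 6.89, 9.96 and 14.6 CPM and in inflamed CCR1/2+ve monocytes 3.93, 4.30 and 6.02 CPM. No population overlapped the next in the order of their means, the inflamed CCR1 libraries at 1.15 to 3.68 CPM coming last. These levels rested on 13160 to 49428 reads a library in resting and 25 to 339 reads in inflamed cells. For Abca1, Abcg1, Lpl, Pltp and Lipa the inflamed CCR1 libraries lay below all other populations, which otherwise overlapped their neighbours except in 2 steps: inflamed CCR2+ve over resting CCR1/2+ve monocytes for Abcg1, and inflamed over resting CCR1/2+ve monocytes for Lipa. For Nr1h3 all neighbours in the order overlapped.

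**Figure D2:**
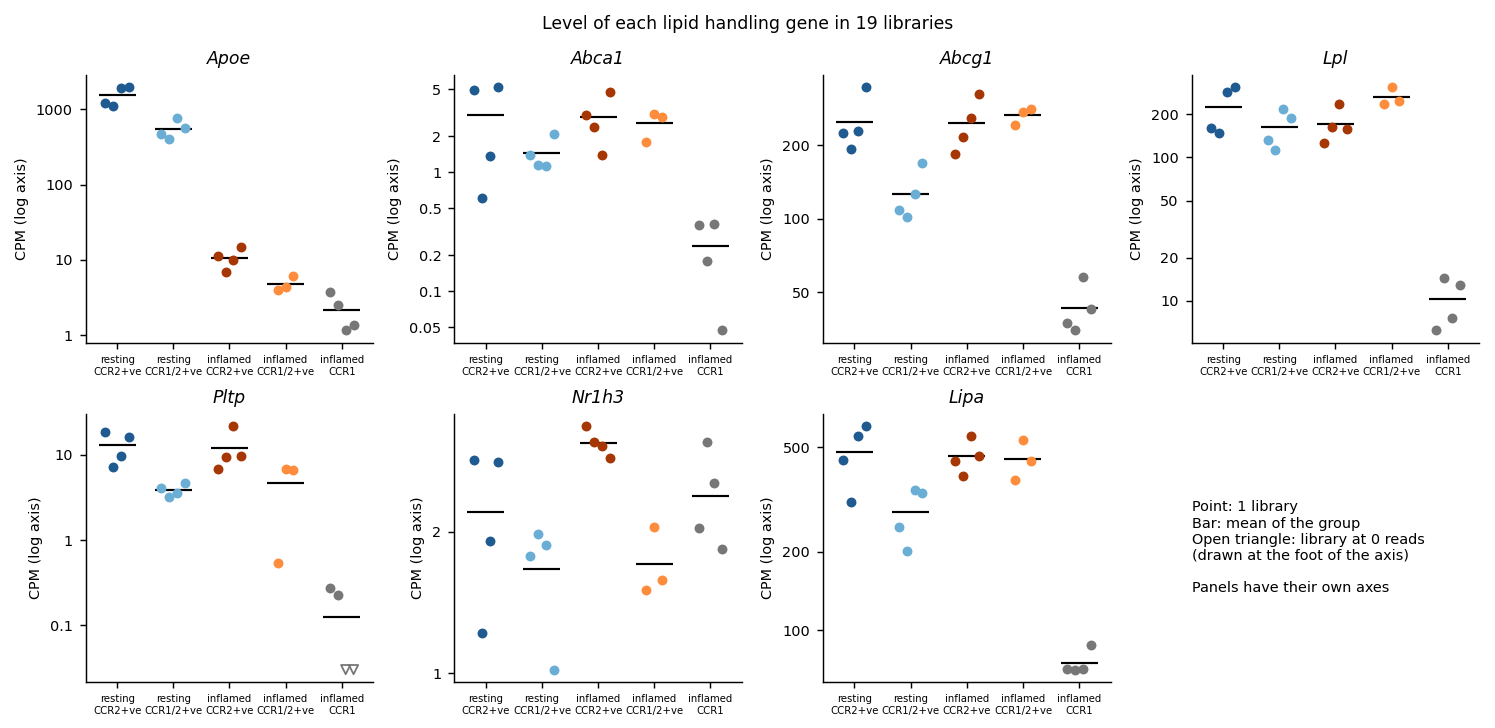
Level of each of the 7 genes in CPM (log axes) in the 19 libraries of 5 populations, with a point for each library. Apoe falls from between 402 and 1998 CPM in resting libraries to between 1.15 and 14.6 CPM in inflamed ones, while Abca1, Abcg1, Lpl, Pltp and Lipa are lowest in the inflamed CCR1 libraries and Nr1h3 overlaps throughout.

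The first comparison asked how the lipid genes differ between resting CCR1/2+ve and CCR2+ve monocytes. Apoe and Pltp were lower in CCR1/2+ve monocytes past both cutoffs (adjusted p below 0.05 and a log2 fold change of at least 1 in size). Apoe was at 548 ± 154 CPM in the former and 1562 ± 469 CPM in the latter (SD, n = 4 each), 2.702-fold lower (log2 fold change -1.43, SE 0.22, adjusted p = 0.00124, edgeR quasi-likelihood test). Pltp (ENSMUSG00000017754, chromosome 2, 164839518 to 164857711) was at 4.09, 3.17, 3.60 and 4.65 CPM in CCR1/2+ve cells, against 18.7, 7.21, 9.68 and 16.1 CPM in CCR2+ve cells, 3.16-fold lower (log2 fold change -1.66, SE 0.27, adjusted p = 0.00124). Neither gene overlapped between the populations (exact permutation test, two-sided, p = 0.0286, the smallest that 70 assignments of 4 against 4 allow). Of all 18652 genes tested, 1.9% were lower and 2.34% higher at both cutoffs, against 2 and 0 of these 7.

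Among the transporters, Abcg1 (ENSMUSG00000024030, chromosome 17, 31057675 to 31117988) was at 224, 193, 229 and 347 CPM in CCR2+ve cells, against 109, 102, 126 and 169 CPM in CCR1/2+ve cells, without overlap. It passed the adjusted p but not the fold cutoff (log2 fold change -0.90, SE 0.18, adjusted p = 0.00482). Abca1 (ENSMUSG00000015243, chromosome 4, 53030787 to 53159895) was at 4.94, 0.610, 1.37 and 5.23 CPM in CCR2+ve cells, against 1.38, 1.16, 1.14 and 2.10 CPM in CCR1/2+ve cells, where replicate 2 of CCR2+ve monocytes was the lowest of all (log2 fold change -0.99, SE 0.54, adjusted p = 0.258). Without that library its log2 fold change was -1.33 (adjusted p = 0.0464). Over all left-out libraries it lay between -1.33 and -0.62 (adjusted p = 0.0464 to 0.571, edgeR). The lysosomal lipase Lipa (ENSMUSG00000024781, chromosome 19, 34492318 to 34527474) was at 448, 308, 553 and 603 CPM in CCR2+ve cells, against 249, 200.5, 345 and 333 CPM in CCR1/2+ve cells, with overlap (log2 fold change -0.69, SE 0.20, adjusted p = 0.0355). Its adjusted p was 0.148 with no filter on low counts and 0.0571 to 0.0947 without replicate 1 or 2 of CCR1/2+ve or replicate 1, 3 or 4 of CCR2+ve monocytes.

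Lpl (ENSMUSG00000015568, chromosome 8, 68880491 to 68907448) was at 160.0, 148, 285 and 311 CPM in CCR2+ve cells, against 132, 112, 218 and 189 CPM in CCR1/2+ve cells, and replicates 3 and 4 lay above replicates 1 and 2 in both (log2 fold change -0.39, SE 0.28, adjusted p = 0.402). The replicate numbers paired the resting libraries, and within the pairs Lpl in CCR1/2+ve monocytes was at 0.609 to 0.828 of its CCR2+ve level, lower in 4 of 4. With the pairing as a block it passed the adjusted p (log2 fold change -0.37, adjusted p = 0.000599, edgeR). The paired ratios were 0.282 to 0.392 for Apoe, 0.218 to 0.440 for Pltp, 0.486 to 0.551 for Abcg1 and 0.553 to 0.651 for Lipa, each below 1 in 4 of 4 pairs. Those of Abca1 and of Nr1h3 were below 1 in 3 of 4 pairs. With the block the adjusted p was 1.12e-09 for Apoe, 4.12e-06 for Pltp, 1.62e-08 for Abcg1 and 2.33e-07 for Lipa (edgeR). For Abca1 and Nr1h3 it was 0.214 and 0.591. The receptor Nr1h3 (ENSMUSG00000002108, chromosome 2, 91184061 to 91202834) was at 2.85, 1.22, 1.91 and 2.82 CPM in CCR2+ve cells, against 1.78, 1.98, 1.88 and 1.02 CPM in CCR1/2+ve cells, with overlap (log2 fold change -0.32, SE 0.33, adjusted p = 0.582).

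Markers of other cells moved with this comparison, in which 2.34% of all genes were called higher and 1.9% lower. Of 10 dendritic cell markers 0 were called higher and 8 lower in CCR1/2+ve monocytes. They summed to 172 to 466 CPM there and 889.8 to 2517 CPM in CCR2+ve monocytes, with Zbtb46 and Xcr1 below 1 CPM in both. Of 15 tissue macrophage markers 6 were called higher and 2 lower. Their sums overlapped (298 to 412 and 383 to 527 CPM) and were mostly Adgre1 and Hmox1 (68.6% and 83.9% of the mean sum). Mean CPM of other members were apart, with Vcam1 at 26.2 against 1.69, Slc40a1 at 16.8 against 1.75 and C1qc at 10.7 against 2.30 higher in CCR1/2+ve monocytes, and Axl at 12.4 against 31.8 and Siglec1 at 1.59 against 5.05 lower. Timd4 was below 1 CPM in both. Of 12 mature neutrophil markers 5 were called higher and 0 lower. They summed to 2644 to 3289.9 and 840.4 to 1146 CPM, and S100a8 (1769.9 against 157 CPM) and S100a9 (325 against 20.2 CPM) made most of the difference. Mmp8 was at 451 against 548 CPM and Csf3r at 169.8 against 222 CPM, neither past both cutoffs, with Ly6g and Retnlg below 1 CPM in both. The part of such cells in the levels of the 7 genes was not tested.

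Of 62 further lipid genes in 5 lists, 55 could be tested, and 2 were higher and 3 lower in resting CCR1/2+ve monocytes. Their median log2 fold change was -0.19, and that of all genes 0.032. At both cutoffs 2.34% of all genes were higher and 1.9% lower. Of 11 LXR partners and targets 1 fell, Mylip, which encodes a ubiquitin ligase for lipoprotein receptors. It went from 17.2 ± 2.73 in CCR2+ve to 7.83 ± 1.52 CPM in CCR1/2+ve monocytes (SD, n = 4 each, log2 fold change -1.05, adjusted p = 0.000536, edgeR). Of 11 lipoprotein receptors 2 fell and 1 rose (Lrp8, a receptor for apolipoprotein E, log2 fold change 1.04, named after its values were seen). The scavenger receptor Cd36 was at 3.01 ± 0.975 against 9.44 ± 3.11 CPM (log2 fold change -1.57, adjusted p = 0.00159), and Cxcl16, which also binds oxidised lipoprotein, at 0.884 ± 0.241 against 3.40 ± 1.53 CPM (log2 fold change -1.86). Of 5 apolipoproteins and lipase partners 1 rose, Angptl4, an inhibitor of lipoprotein lipase, from 0.471 ± 0.230 to 1.36 ± 0.813 CPM (log2 fold change 1.60, adjusted p = 0.0476). That call was lost without replicate 2 or 3 of CCR1/2+ve or replicate 2, 3 or 4 of CCR2+ve monocytes. Of 15 cholesterol synthesis genes and 13 trafficking and storage genes, 0 passed both cutoffs with edgeR or DESeq2. At an unadjusted p below 0.05, for which no share over all genes is given here, there were 5 and 6 in edgeR. With the pairing as a block 1 cholesterol synthesis gene passed both cutoffs.

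The second comparison asked what differs between inflamed and resting CCR2+ve monocytes, and Apoe alone of the 7 genes was called. It fell 152-fold, from 1562 ± 469 to 10.7 ± 3.19 CPM (SD, n = 4 each, log2 fold change -7.25, SE 0.29, adjusted p = 4.01e-10, edgeR), without overlap (exact permutation test, two-sided, p = 0.0286, the smallest possible). Of the 7583 genes that reached 10 CPM on average in resting CCR2+ve monocytes, 0 fell further by log2 fold change, and over all 18652 genes tested Apoe ranked 19 from the most lowered. It ranked 54 by level in the resting cells. Of all genes tested 19.2% were lower and 9.37% higher at both cutoffs. Over the alternatives its log2 fold change lay between -7.45 and -7.01.

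The other 6 genes did not pass the adjusted p. Abcg1 was at 184, 215, 259 and 325 CPM in inflamed cells, overlapping its resting range of 193 to 347 CPM (log2 fold change -0.072, SE 0.19, adjusted p = 0.787). Lipa was at 444, 389.6, 550.0 and 464 CPM, within its resting range of 308 to 603 CPM (log2 fold change -0.11, SE 0.17, adjusted p = 0.628). The sterol exporter and the lysosomal lipase kept overlapping ranges in the cells in which Apoe fell. Lpl was at 126, 163, 235 and 157 CPM against a resting range of 148 to 311 CPM (log2 fold change -0.47, SE 0.25, adjusted p = 0.141), and without inflamed replicate 3 its log2 fold change was -0.67 (adjusted p = 0.0311). Over all left-out libraries the adjusted p of Lpl was 0.0311 to 0.530 (edgeR). Pltp was at 6.78, 9.49, 21.9 and 9.81 CPM, spanning its resting range (log2 fold change -0.18, SE 0.37, adjusted p = 0.735), and Abca1 at 3.01, 2.42, 1.40 and 4.73 CPM (log2 fold change -0.12, SE 0.56, adjusted p = 0.888). Nr1h3 was at 3.37, 3.12, 3.05 and 2.88 CPM, all above its resting libraries, of which the highest was at 2.85 CPM (exact permutation test, p = 0.0286). Its change did not pass the adjustment over all genes (log2 fold change 0.43, SE 0.28, adjusted p = 0.235).

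In CCR1/2+ve monocytes Apoe fell 125-fold, from 548 ± 154 CPM at rest (SD, n = 4) to 4.75 ± 1.12 CPM when inflamed (SD, n = 3). Abcg1, Lpl and Lipa rose by less than the fold cutoff. The part of the pump itself in these changes was not tested. For Apoe the log2 fold change was -6.96 (SE 0.28, adjusted p = 6.30e-08, edgeR), and 1 of 7507 genes with at least 10 CPM in the resting cells fell further (Kcnk12, log2 fold change -9.58, named after its values were seen). Over all genes tested Apoe ranked 44 from the most lowered. Of these 19.4% were lower and 9.16% higher at both cutoffs, and the median log2 fold change was -0.25 (-0.17 with RLE size factors and -0.12 with all 19 libraries in the fit). Abcg1 rose from 109, 102, 126 and 169 CPM to 241, 272 and 281 CPM (log2 fold change 0.95, SE 0.14, adjusted p = 0.000150). It passed the fold cutoff as well with DESeq2, with RLE size factors, with all 19 libraries in the fit, and without inflamed replicate 2 or resting replicate 4, where its log2 fold change was 1.02 and 1.09.

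Lpl was at 234, 309 and 248 CPM after 132, 112, 218 and 189 CPM at rest (log2 fold change 0.58, SE 0.19, adjusted p = 0.0351), and Lipa at 376, 534 and 444 CPM after 249, 200.5, 345 and 333 CPM (log2 fold change 0.56, SE 0.17, adjusted p = 0.0216). For these, for Abcg1 and for Apoe the states did not overlap (exact permutation test, two-sided, p = 0.0571, the smallest that 35 assignments of 3 against 4 allow). The adjusted p of Lpl was 0.116 without inflamed replicate 3, 0.0970 and 0.0624 without resting replicates 1 and 2, 0.0793 with no filter on low counts and 0.0736 with all 19 libraries in the fit. That of Lipa was 0.0929 without inflamed replicate 3 and 0.0651 without resting replicate 1. Pltp was at 0.533, 6.89 and 6.59 CPM, and its low library, replicate 2, decided its value. The log2 fold change was 0.16 (SE 0.62, adjusted p = 0.868) with that library and 0.68 (adjusted p = 0.0318) without it. Abca1 was at 1.79, 3.097 and 2.90 CPM, overlapping 1.14 to 2.10 CPM at rest (log2 fold change 0.72, SE 0.33, adjusted p = 0.0995), with an adjusted p of 0.0488 without replicate 2. Over all left-out libraries the adjusted p of Abca1 was 0.0488 to 0.276 (edgeR). Nr1h3 was at 1.502, 2.05 and 1.58 CPM against 1.02 to 1.98 CPM (log2 fold change -0.098, SE 0.34, adjusted p = 0.846).

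**Figure D3:**
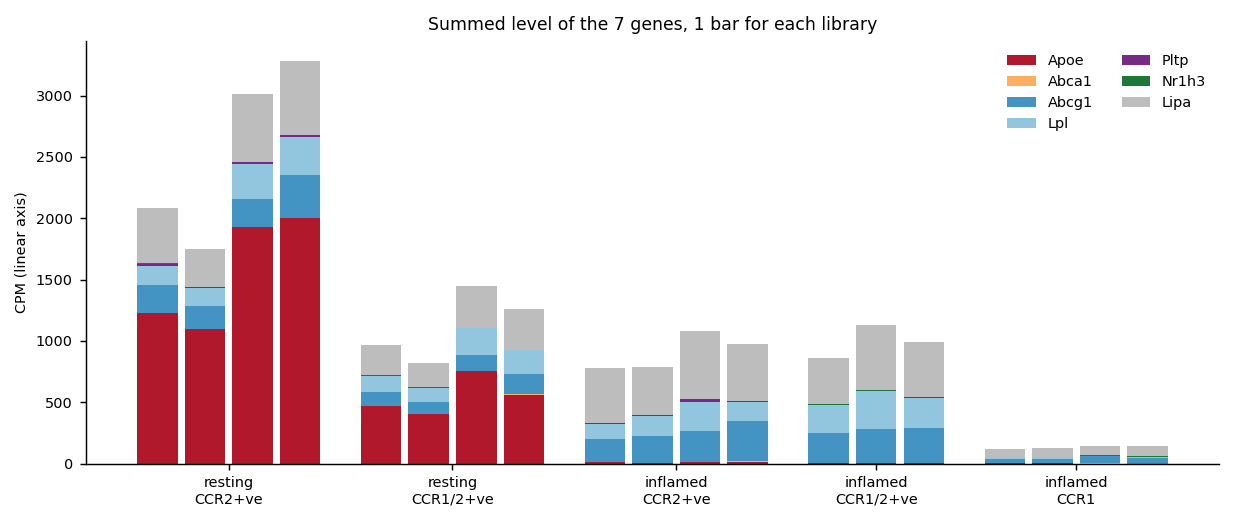
Sum of the 7 genes in each library in CPM (linear axis from 0), with the share of each gene in colour. Apoe makes up 58.8% to 64.1% of the sum in resting CCR2+ve and 44.6% to 52.1% in resting CCR1/2+ve libraries, and 0.871% to 1.49% and 0.380% to 0.608% in the inflamed ones, where Abcg1, Lpl and Lipa make up most of it.

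Whether the change from resting to inflamed differed between the populations was tested as an interaction. For it 0.397% of all genes passed an adjusted p of 0.05 and 0 of the 7 did (edgeR). At an unadjusted p below 0.05, for which no share over all genes is given here, there were 3 of the 7. Each had a higher log2 fold change in CCR1/2+ve monocytes: Abcg1 (difference of log2 fold changes 0.97, SE 0.28, adjusted p = 0.139), Lpl (1.00, SE 0.37, adjusted p = 0.268) and Lipa (0.63, SE 0.28, adjusted p = 0.341). DESeq2 called 1, Abcg1 (1.03, adjusted p = 0.0223). Without inflamed CCR2+ve replicate 4 the adjusted p of Abcg1 was 0.0412 in edgeR, and over all left-out libraries it was 0.0412 to 0.319. With the replicate number as a block, which paired the resting but not the inflamed libraries, Abcg1, Lpl and Lipa passed (adjusted p = 0.00659, 0.0328 and 0.0476). For Apoe the difference was small beside its SE (0.24, SE 0.38, adjusted p = 0.847).

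**Figure D4:**
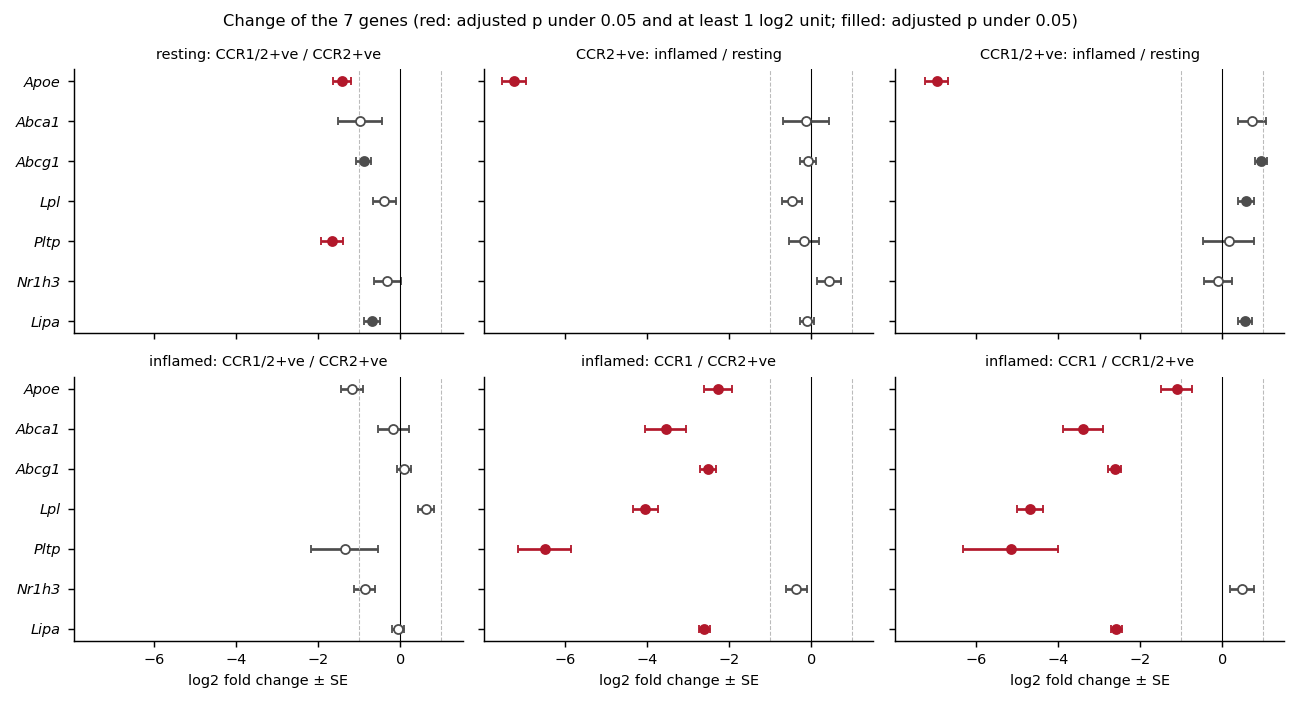
Log2 fold change of the 7 genes in 6 comparisons, first population over second, with bars of the SE and dashed lines at the fold cutoff. Apoe alone lies past the cutoff when inflamed is compared with resting cells, and all of the genes but Nr1h3 lie past it on the low side in both comparisons of inflamed CCR1 libraries.

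Between inflamed CCR1/2+ve and CCR2+ve monocytes 0 of the 7 genes passed the adjusted p in edgeR, 3 had an unadjusted p below 0.05 and DESeq2 called 1. Of all genes 0.102% were higher and 0.0429% lower at both cutoffs, and their share at an unadjusted p below 0.05 is not given here. Apoe was at 3.93, 4.30 and 6.02 CPM in CCR1/2+ve cells, against 11.3, 6.89, 9.96 and 14.6 CPM in CCR2+ve cells, without overlap (log2 fold change -1.18, SE 0.27, adjusted p = 0.136). Its adjusted p was 0.00539 with DESeq2 and 0.0168 with no filter on low counts. Nr1h3 was at 1.502, 2.05 and 1.58 against 3.37, 3.12, 3.05 and 2.88 CPM, without overlap (log2 fold change -0.87, SE 0.26, adjusted p = 0.298), and Lpl at 234, 309 and 248 against 126, 163, 235 and 157 CPM, with overlap (log2 fold change 0.62, SE 0.19, adjusted p = 0.333). For Abcg1, Lipa, Abca1 and Pltp the populations overlapped, with log2 fold changes of 0.090 (SE 0.17), -0.048 (SE 0.15), -0.17 (SE 0.38) and -1.36 (SE 0.82). GC content moved with this comparison. Across 8667 genes the log2 fold change and GC content had r = -0.32, and -0.020 after offsets for GC content, with which the log2 fold change of Apoe was -0.94 (adjusted p = 0.209).

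Across the 5 lists 15 of 55 genes rose and 8 fell with inflammation in CCR2+ve, and 19 rose and 6 fell in CCR1/2+ve monocytes. Of all genes tested 9.37% rose and 19.2% fell in CCR2+ve, and 9.16% rose and 19.4% fell in CCR1/2+ve monocytes. Genes named only for having fallen were picked after their values were seen. Of 15 cholesterol synthesis genes tested, 8 rose and 0 fell in CCR2+ve monocytes and 9 rose and 1 fell in CCR1/2+ve monocytes, with median log2 fold changes of 1.09 and 1.11 against -0.10 and -0.25 over all genes tested. In CCR2+ve monocytes Srebf2, the transcription factor that drives the pathway, rose from 27.5 ± 4.54 to 178 ± 42.6 CPM (log2 fold change 2.62, adjusted p = 1.06e-08, edgeR), and Lss, lanosterol synthase, from 3.49 ± 0.248 to 15.8 ± 2.51 CPM (log2 fold change 2.10, SD, n = 4 each). In CCR1/2+ve monocytes Mvd, of the mevalonate pathway, rose from 30.3 ± 3.24 (SD, n = 4) to 81.7 ± 5.37 CPM (SD, n = 3, log2 fold change 1.31) and Lss from 3.01 ± 0.647 to 15.4 ± 2.84 CPM (log2 fold change 2.21). Mvd was also called higher in CCR2+ve monocytes (log2 fold change 1.09), and Srebf2 in CCR1/2+ve monocytes (1.94). The gene that fell in CCR1/2+ve monocytes was Scap, whose product escorts the SREBP proteins (log2 fold change -1.27). Over the alternatives with a fold cutoff, 8 to 10 genes of the list were called in CCR2+ve and 8 to 10 in CCR1/2+ve monocytes.

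Of 11 LXR partners and targets, 4 rose and 2 fell in CCR2+ve and 5 rose and 1 fell in CCR1/2+ve monocytes. The shares over all genes were 9.37% higher and 19.2% lower in CCR2+ve, and 9.16% and 19.4% in CCR1/2+ve monocytes. Fasn, fatty acid synthase, rose in CCR2+ve monocytes from 6.88 ± 0.926 to 37.4 ± 8.68 CPM (log2 fold change 2.37, adjusted p = 3.70e-08, edgeR). Lpcat3, which remodels phospholipid, rose from 48.9 ± 3.50 to 117 ± 4.30 CPM (log2 fold change 1.19), and in CCR1/2+ve monocytes from 42.1 ± 4.84 to 119 ± 3.73 CPM (log2 fold change 1.37). Scd2, a fatty acid desaturase, rose in CCR1/2+ve monocytes from 13.4 ± 3.14 to 43.9 ± 12.0 CPM (log2 fold change 1.58). Scd2 was also called higher in CCR2+ve monocytes (log2 fold change 1.38), and Fasn in CCR1/2+ve monocytes (1.48). Fasn, Lpcat3 and Scd2 make or remodel fatty acids and phospholipid. The genes that fell were Smpdl3a, a phosphodiesterase of the sphingomyelinase family, in both populations (log2 fold change -2.26 and -2.25), and Mylip in CCR2+ve monocytes (log2 fold change -1.67).

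Of 11 lipoprotein receptors, 2 rose and 3 fell in CCR2+ve and 2 rose and 2 fell in CCR1/2+ve monocytes. At the same cutoffs 9.37% of all genes rose and 19.2% fell in CCR2+ve, and 9.16% and 19.4% in CCR1/2+ve monocytes. Lrp1, which is known to take up particles with apolipoprotein E, rose from 97.3 ± 14.5 to 366 ± 36.7 CPM in CCR2+ve (log2 fold change 1.85, adjusted p = 1.28e-08, edgeR) and from 59.9 ± 13.1 to 299 ± 35.1 CPM in CCR1/2+ve monocytes (log2 fold change 2.19). The receptors that fell were Cd36 (log2 fold change -2.62 and -1.62) and Olr1 (-1.75 and -1.81) in CCR2+ve and CCR1/2+ve monocytes, and Cxcl16 (-1.36) in CCR2+ve monocytes. The scavenger receptors Msr1 (log2 fold change -0.37 and 0.21, adjusted p = 0.0258 and 0.0816) and Marco (3.24 and -4.79, adjusted p = 0.164 and 0.141, edgeR) were not called in either. Marco rested on 20 reads over all libraries together, so its log2 fold changes have little precision. Of 5 apolipoproteins and lipase partners, 1 rose and 1 fell in CCR2+ve and 1 rose and 0 fell in CCR1/2+ve monocytes. Apobr, a receptor for apolipoprotein B, rose from 40.2 ± 4.39 to 133 ± 3.24 CPM (log2 fold change 1.66) and from 36.3 ± 5.64 to 136 ± 4.11 CPM (log2 fold change 1.78). Apoc1, a neighbour of Apoe in a gene cluster, fell in CCR2+ve monocytes from 4.06 ± 0.868 to 1.40 ± 0.381 CPM (log2 fold change -1.60, adjusted p = 0.000162). In CCR1/2+ve monocytes its log2 fold change of -0.96 passed the adjusted p (0.0217) but not the fold cutoff, and 2 genes of this list were called without inflamed replicate 2 or 3 or resting replicate 1 or 2.

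Of 13 genes of cholesterol trafficking and lipid storage, 0 rose and 2 fell in CCR2+ve and 2 rose and 2 fell in CCR1/2+ve monocytes. Over all genes 9.37% rose and 19.2% fell in CCR2+ve, and 9.16% and 19.4% in CCR1/2+ve monocytes. Cyp27a1, a sterol hydroxylase whose product is a ligand of LXR, fell in CCR2+ve monocytes from 100.4 ± 11.8 to 31.8 ± 12.8 CPM (log2 fold change -1.73, adjusted p = 8.39e-06, edgeR), and the fatty acid binding protein Fabp4 from 0.913 ± 0.294 to 0.0916 ± 0.0406 CPM (log2 fold change -3.33). Both fell in CCR1/2+ve monocytes as well (log2 fold change -1.55 and -2.64). In CCR1/2+ve monocytes Soat1, which esterifies cholesterol for storage, rose from 521 ± 29.3 to 1186 ± 57.0 CPM (log2 fold change 1.06) and Plin2, which coats lipid droplets, from 321 ± 62.3 to 737 ± 89.9 CPM (log2 fold change 1.07). In CCR2+ve monocytes both rose by less than the fold cutoff. Their log2 fold changes were 0.82 (adjusted p = 5.84e-05) and 0.69 (adjusted p = 0.000875, edgeR). In CCR2+ve monocytes 5 of the 13 rose and 4 fell past the adjusted p alone. The shares above are for both cutoffs. Many more of all genes passed the adjusted p alone, as given below for no fold cutoff. Over the alternatives with a fold cutoff the calls of this list in CCR1/2+ve monocytes numbered 1 to 5. Between inflamed CCR1/2+ve and CCR2+ve monocytes 0 of the 55 passed the adjusted p in edgeR, 9 had an unadjusted p below 0.05, and 1 passed the adjusted p in DESeq2. The share of all genes at that unadjusted p is not given here.

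**Figure D5:**
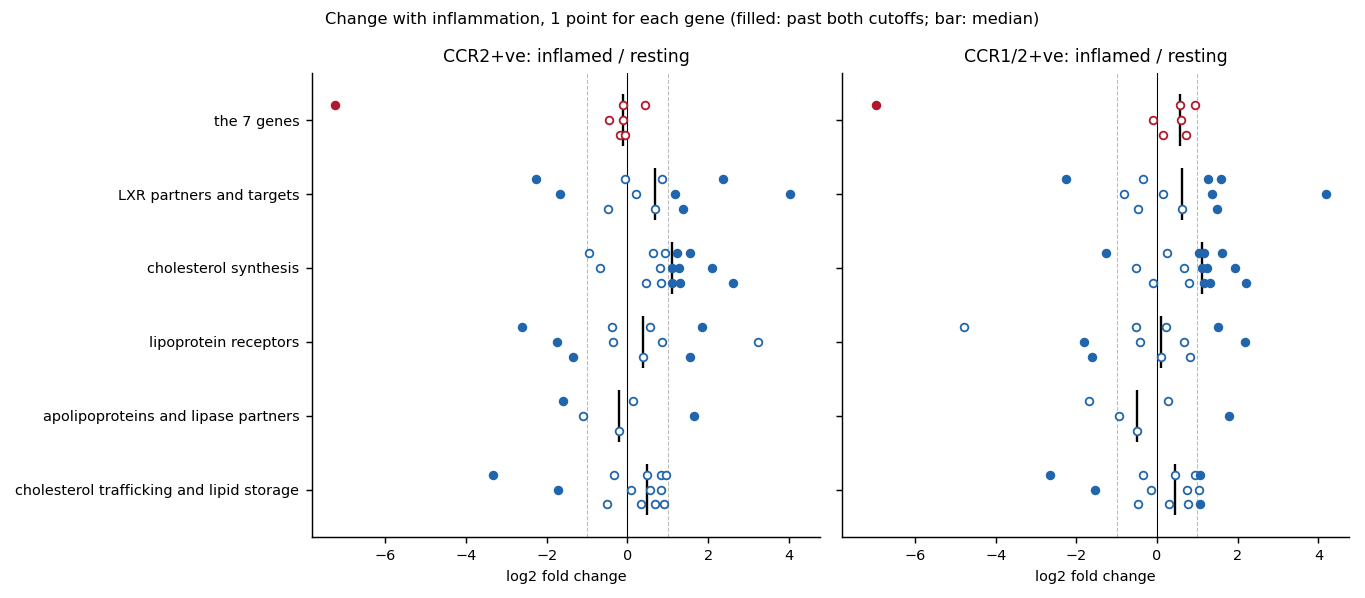
Log2 fold change of inflamed over resting cells for the 7 genes and for the 55 tested genes of 5 lists, shown for each monocyte population. Apoe lies at the far low end, and most cholesterol synthesis genes lie above 0.

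Markers of other cells moved with inflammation too. Beside them, 9.37% of all genes rose and 19.2% fell in CCR2+ve, and 9.16% and 19.4% in CCR1/2+ve monocytes. Of 15 tissue macrophage markers, of cells known to express Apoe, 5 rose and 0 fell in CCR2+ve and 4 rose and 6 fell in CCR1/2+ve monocytes. They summed to 383 to 527 CPM in resting and 729 to 964 CPM in inflamed CCR2+ve monocytes, and to 298 to 412 and 782 to 808 CPM in CCR1/2+ve monocytes. Adgre1 and Hmox1 made up 68.6% of the mean sum at rest and 89.1% when inflamed in CCR1/2+ve monocytes, and the other 13 went from 110.0 to 87.1 CPM there and from 76.5 to 199 CPM in CCR2+ve monocytes. In CCR1/2+ve monocytes the mean CPM was higher in inflamed than in resting cells for 6 of the 15 and lower for 9. It fell for Vcam1 from 26.2 to 2.16, Slc40a1 from 16.8 to 3.26, C1qa from 5.31 to 1.44, C1qc from 10.7 to 1.86, Spic from 4.25 to 1.47 and Cd5l from 2.69 to 0.0939. It rose for Axl, Siglec1, Adgre1 and Hmox1. Timd4 was below 1 CPM in all 4 populations. Of 8 erythroid markers 0 rose and 8 fell in CCR2+ve and 0 rose and 8 fell in CCR1/2+ve monocytes, with sums of 60.9 to 305 CPM in resting and 1.98 to 4.87 CPM in inflamed cells, with Klf1 below 1 CPM throughout.

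With inflammation the shares over all genes were 9.37% higher and 19.2% lower in CCR2+ve, and 9.16% and 19.4% in CCR1/2+ve monocytes. Of 10 dendritic cell markers 0 rose and 5 fell in CCR2+ve and 3 rose and 4 fell in CCR1/2+ve monocytes. They summed to 889.8 to 2517 CPM at rest and 1367 to 4903 CPM when inflamed in CCR2+ve monocytes, and to 172 to 466 and 944 to 1190.2 CPM in CCR1/2+ve monocytes, mostly as Cd74 and H2-Ab1. In CCR2+ve monocytes the mean CPM was higher in inflamed than in resting cells for 4 of the 10 and lower for 6. It fell for Flt3 from 32.2 to 2.51, Cd209a from 88.5 to 2.79, Clec9a from 1.73 to 0.0591 and Siglech from 2.48 to 0.177. For Cd74, which did not pass the adjusted p, it was 1027 at rest and 2575 when inflamed. Zbtb46 was below 1 CPM in all 4 populations. Of 12 mature neutrophil markers 6 rose and 0 fell in CCR2+ve and 6 rose and 2 fell in CCR1/2+ve monocytes. They summed to 1720.3 to 2052 CPM in inflamed CCR2+ve and 3045 to 3738 CPM in inflamed CCR1/2+ve monocytes. These sums lay above the resting range in CCR2+ve monocytes and overlapped it in CCR1/2+ve monocytes, where S100a8 and S100a9 fell. In CCR2+ve monocytes Mmp8 and Csf3r made up 76.0% of the mean sum at rest and 80.3% when inflamed. The mean CPM there was higher when inflamed for 9 of the 12 and lower for S100a8, S100a9 and Ly6g. Of 8 B cell markers, which summed to 18.4 to 40.6 CPM, 0 rose and 2 fell in CCR2+ve and 0 rose and 1 fell in CCR1/2+ve monocytes. The part of such cells in the changes of the 7 genes was not tested.

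The libraries labelled inflamed CCR1 had lower levels of 6 of the 7 genes than inflamed CCR2+ve and inflamed CCR1/2+ve monocytes, in comparisons that share these libraries. Of all genes 16.8% were lower and 14.4% higher than in CCR2+ve monocytes, and 14.6% lower and 13.2% higher than in CCR1/2+ve monocytes. Pltp was at 0.273, 0.226, 0 and 0 CPM, on 6 reads or fewer a library (against CCR2+ve monocytes log2 fold change -6.50, SE 0.65, adjusted p = 4.54e-06, and against CCR1/2+ve monocytes log2 fold change -5.16, SE 1.16, adjusted p = 0.0103, edgeR). Lpl was at 6.22, 14.4, 7.57 and 12.8 CPM, 16.5-fold below CCR2+ve (adjusted p = 1.01e-06) and 25.7-fold below CCR1/2+ve monocytes (adjusted p = 1.60e-05). Lipa was at 71.0, 70.9, 71.5 and 88.3 CPM, 6.11-fold (adjusted p = 2.78e-11) and 5.997-fold (adjusted p = 3.04e-09) below them.

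Abcg1 was at 37.3, 34.9, 57.4 and 42.5 CPM in the inflamed CCR1 libraries, 5.72-fold below CCR2+ve (adjusted p = 7.69e-08, edgeR) and 6.17-fold below CCR1/2+ve monocytes (adjusted p = 1.76e-08). Abca1 was at 0.363, 0.181, 0.370 and 0.0471 CPM, on 1 to 8 reads a library, with log2 fold changes of -3.55 (SE 0.50) and -3.40 (SE 0.49). Apoe was at 3.68, 2.53, 1.15 and 1.36 CPM, 4.84-fold below CCR2+ve (adjusted p = 5.55e-05) and 2.16-fold below CCR1/2+ve monocytes (log2 fold change -1.11, SE 0.38, adjusted p = 0.0308). The latter adjusted p was 0.0520 to 0.118 without replicate 2, 3 or 4 of the inflamed CCR1 libraries or replicate 3 or 4 of CCR1/2+ve monocytes. Nr1h3, at 2.04, 3.11, 2.54 and 1.84 CPM, passed in neither comparison (log2 fold changes -0.37, SE 0.25, and 0.48, SE 0.30, adjusted p = 0.254 and 0.226).

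Of the 55 pathway genes, 7 were higher and 24 lower in inflamed CCR1 libraries than in CCR2+ve monocytes, and 6 and 18 than in CCR1/2+ve monocytes. Over all genes the shares were 14.4% higher and 16.8% lower, and 13.2% higher and 14.6% lower. Lrp1 was at 5.64 ± 1.21 against 366 ± 36.7 CPM in CCR2+ve monocytes (SD, n = 4 each, log2 fold change -6.01, adjusted p = 2.48e-14, edgeR). Rxra, an RXR partner of LXR, was at 2.17 ± 1.02 against 38.0 ± 2.53 CPM, while Rxrb, also an RXR gene, was not called (log2 fold change -0.19, adjusted p = 0.227, edgeR). Npc2, which carries cholesterol in the lysosome, was at 347 ± 16.2 against 2049.7 ± 149 CPM. Higher were Olr1, a receptor for oxidised lipoprotein (21.2 ± 1.14 against 1.86 ± 0.480 CPM), Mgll, monoglyceride lipase (20.9 ± 2.61 against 0.0788 ± 0.0939 CPM), and Scap, which escorts the SREBP proteins (19.4 ± 4.85 against 6.01 ± 1.06 CPM). These differences stand beside the low monocyte and high neutrophil markers of the same libraries, whose part in them was not tested.

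The genes whose levels followed Apoe most closely were found by Pearson's r of log2 CPM over the 19 libraries, among 11176 genes that reached 1 CPM on average. They were Klc1 (r = 0.994), Nagpa (0.994), Gltp (0.994), Marc2 (0.993) and Atp1b3 (0.993), with r of 0.656 to 0.774 within the populations, each population's mean removed. Gltp, the glycolipid transfer protein, had means of 611 and 419.6 CPM in resting and 45.1 and 42.3 CPM in inflamed cells, with CCR2+ve monocytes given first. Nearest to Abcg1 were Dapp1 (0.988) and Fam234a (0.981), to Lpl Gpr65 (0.985) and Slc11a1 (0.985), and to Lipa Prcp (0.989) and Laptm4a (0.988). Nearest to Pltp were Cdk9 (0.964) and Plpp2 (0.961), to Abca1 Zfp951 (0.914) and Zfp119a (0.903), and to Nr1h3 Zfp516 (0.725) and Crtc1 (0.703). Among the 7, Abcg1, Lpl and Lipa had r of 0.916 to 0.966 with each other (0.383 to 0.761 within the populations), and Apoe and Abcg1 0.378 (0.133 within). These values describe likeness of levels over libraries that share populations.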

How the data were processed

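The authors put paired-end reads through fastp for quality assessment, aligned them with STAR 2.7.10a to GRCm38 and counted uniquely mapped reads per Ensembl gene. They deposited raw read counts, whose strand setting is not given in the sources used here. Of 20 columns, 1 matched no sample and was not used. The 7 genes, the pathway lists and the marker lists were chosen with earlier results of these data known.

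Genes that reached 1 read per library on average (18652) were tested with edgeR 4.0.16 (R 4.3.3, TMM, quasi-likelihood, only the groups compared) with Benjamini-Hochberg adjustment over all of them. Called means an adjusted p below 0.05 and a log2 fold change of at least 1 in size. The interaction used 1 fit of the 4 CCR2+ve and CCR1/2+ve groups and the adjusted p alone. Single values were compared by exact permutation tests over libraries (SciPy 1.17.1). CPM per kb divides by exonic length (GENCODE annotation of GRCm38). The counts use no molecular identifiers, so precision from depth covers counting error only.

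The genes named are the 7, the 2 genes of smallest p among those called of each list and comparison, and the nearest genes by r (5 for Apoe, 2 for each other gene); some further names were picked after their values were seen, as stated. The numbers of same-numbered libraries were checked for pairing by the correlation of their deviations from group means over 7685 genes. It was 0.306 to 0.611 for resting and 0.134 to 0.247 for inflamed CCR1 and CCR2+ve libraries. Alternatives were DESeq2 1.42.0, RLE size factors, other filters, all 19 libraries in the fit, the replicate block, GC offsets, no fold cutoff and each library left out; offsets for GC content and length were chosen after seeing the data. The fits were tested on simulated data. Some genes of the lists and some reporters are not reported here by name.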

Additional observations from a re-analysis of the deposited data

Results flagged for a closer look

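Lipa in replicate 4 of the inflamed CCR1 libraries was at 88.3 CPM, while the other 3 lay between 70.9 and 71.5 CPM. The gap to the nearest of them was 0.966 of the group's range, above Dixon's critical value for 4 samples. Of 28 sets of gene and population with 4 libraries it was the 1 flagged, and chance flags about 1 in 20.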

How the results depend on the processing

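With no fold cutoff the calls among the 7 genes went from 2 to 4 between resting populations and from 1 to 4 with inflammation in CCR1/2+ve monocytes, and those among all genes from 792 to 3149 (resting), 5327 to 8921 and 5320 to 8586 (inflammation in CCR2+ve and CCR1/2+ve monocytes), and 5830 to 8972 and 5172 to 8061 (inflamed CCR1 against CCR2+ve and CCR1/2+ve monocytes). With DESeq2, RLE size factors or all 19 libraries in the fit, 2 of the 7 genes were called with inflammation in CCR1/2+ve monocytes. Between the inflamed populations 1 of the 7 was called with DESeq2, with no filter and with the replicate block, and all genes called went from 27 to 107 (DESeq2), 78 (GC offsets with the block), 53 (all 19 libraries), 53 (no filter) and 83 (block). For the interaction 1 of the 7 passed with DESeq2, 2 with GC offsets and the block and 3 with the block, and all genes went from 74 to 534 (DESeq2), 133 (GC offsets), 227 (GC offsets with the block), 113 (RLE), 187 (all 19 libraries), 122 (edgeR's own filter), 145 (no filter) and 222 (block). The causes were not tested.

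Leaving out 1 library at a time gave 2 to 3 calls among the 7 genes and 518 to 1013 among all genes between resting populations, 1 to 1 and 5001 to 5190 with inflammation in CCR2+ve, 1 to 2 and 4687 to 5184 in CCR1/2+ve monocytes, 0 to 0 and 15 to 42 between inflamed populations, 6 to 6 and 5547 to 5754 and 5 to 6 and 4628 to 5101 for inflamed CCR1 against CCR2+ve and CCR1/2+ve monocytes, and 0 to 1 and 0 to 253 for the interaction (0 without inflamed CCR1/2+ve replicate 3, 253 without inflamed CCR2+ve replicate 4, and 11 of 15 libraries moved it by over 1.5 times). The count between resting populations was lowest without CCR2+ve replicate 4, and that between inflamed populations was 15 and 17 without CCR1/2+ve replicates 3 and 4 and 42 without CCR2+ve replicate 1.

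Changes of sign met only genes that were not called. With inflammation in CCR2+ve monocytes the log2 fold change of Abca1 was 0.12 with the replicate block and 0.21 with GC offsets and the block (-0.49 to 0.34 over left-out libraries), and that of Lipa 0.067 with GC offsets, 0.096 with the block as well and 0.037 with GC and length offsets (-0.21 to 0.084). Left-out libraries gave -0.25 to 0.20 for Abcg1 and -0.64 to 0.13 for Pltp. In CCR1/2+ve monocytes Pltp was at -0.17 with the block, -0.30 with GC offsets and the block, -0.00075 with GC offsets and -0.017 with GC and length offsets (-0.22 to 0.68), and Nr1h3 at 0.040 with all 19 libraries and 0.036 with the block (-0.29 to 0.063). Between inflamed populations Abcg1 was at -0.012 with the block (-0.028 to 0.25), with -0.38 to 0.17 for Abca1 and -0.19 to 0.076 for Lipa over left-out libraries. The interaction of Pltp was -0.097 to 0.81 over them.

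The replicate numbers paired the resting libraries and the inflamed CCR1 and CCR2+ve libraries, where the block as a term left all calls on these genes at both cutoffs in place. In the other comparisons of 2 groups the samples share only a number (correlations of same-numbered libraries from -0.32 to 0.50), and the block took the adjusted p of Apoe to 0.0374 and of Lpl to 0.0464 between inflamed populations, of Lpl to 0.0184 with inflammation in CCR2+ve monocytes and of Pltp to 0.0971 for inflamed CCR1 against CCR1/2+ve monocytes. Of all values for the 7 genes under an alternative, 791 kept their direction and side of the threshold, 18 newly passed, 20 no longer passed and 32 changed sign. Low read counts limit Abca1, Nr1h3 and, in inflamed CCR1 libraries, Pltp.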
